A study of Homo sapiens with 8 samples.

Results

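The liver-enriched transcription factors examined here were HNF4A, FOXA1, FOXA2, FOXA3, CEBPA, CEBPB, NR1H4 and PROX1. They are the 8 genes of 63241 Ensembl identifiers in the deposited values whose identifier was paired with one of these symbols, and each symbol matched 1 identifier. All 8 were among the 15173 genes that passed the filter on low values (2 or more libraries at an FPKM of 1 or above). FPKM scales the fragments of a gene by transcript length and library total, so levels can be compared between genes. Between libraries the comparison is limited, because the sum of FPKM over all genes was not equal. HepG2 and Huh7 are established human hepatocellular carcinoma (HCC) cell lines, and each was sequenced as wild-type sorafenib-sensitive cells (WT, treatment label control) and as sorafenib-resistant cells (SR, treatment label sorafenib), which had been derived by stepwise exposure to the drug. Each of these 4 groups was sequenced as 2 mRNA libraries, 8 in all. Acquired resistance and the drug itself cannot be told apart in these labels, and nothing states that the replicates were separate cultures, so p-values measure the spread between these libraries, which may be technical.

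Hepatocytes owe much of their identity to a small network of DNA-binding proteins that sustain each other's expression. FOXA proteins open chromatin at liver enhancers, HNF4A, a nuclear receptor, drives most genes of the differentiated hepatocyte, and C/EBP alpha and C/EBP beta are basic leucine zipper proteins that bind the same sites. C/EBP alpha is linked to the quiescent, metabolic state of the hepatocyte, whereas C/EBP beta is linked to the acute phase response and to regeneration. NR1H4 encodes FXR, the bile acid receptor, and PROX1 is a homeobox factor of hepatoblasts and hepatocytes that interacts with HNF4A.

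Promoter sequence was available from RefSeq (GRCh38.p14) for 6 of the 8 genes, in 8 windows of 250 bases before a start site. Windows of HNF4A and NR1H4 are shown, 5′ to 3′ on the strand of the gene, as examples that hold letters that other members of the network read. Capitals mark the matches. In HNF4A (chr20:44400989-44401238, plus strand, the downstream of its starts) they are 2 copies of the HNF1 half-site GTTAAT on the opposite strand. In NR1H4 (chr12:100503110-100503359, plus strand) they are the nuclear receptor half-site AGGTCA on the opposite strand, the forkhead core TGTTTA once on each strand, and GTTAAT on the strand shown.
HNF4A: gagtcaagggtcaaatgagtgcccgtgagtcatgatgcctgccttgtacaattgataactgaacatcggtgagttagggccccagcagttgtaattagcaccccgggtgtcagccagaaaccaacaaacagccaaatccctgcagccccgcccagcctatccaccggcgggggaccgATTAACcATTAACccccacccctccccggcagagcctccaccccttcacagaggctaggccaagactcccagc
NR1H4: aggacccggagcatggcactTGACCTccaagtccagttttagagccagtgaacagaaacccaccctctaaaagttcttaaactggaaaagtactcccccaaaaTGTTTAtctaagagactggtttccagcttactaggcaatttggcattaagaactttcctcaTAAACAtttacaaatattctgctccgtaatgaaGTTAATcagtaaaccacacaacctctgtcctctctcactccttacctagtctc
For the genes of the C/EBP proteins, 30 bases are shown, from 40 to 11 bases before the start, with the TATA box TATAAA in capitals (CEBPA chr19:33302545-33302574, minus strand, and CEBPB chr20:50190790-50190819, plus strand).
CEBPA: gcctgccgggTATAAAagctgggccggcgc
CEBPB: cgggccgccctTATAAAtaaccgggctcag
The TATA box begins 30 bases before the start in CEBPA and 29 before the downstream of the CEBPB starts. The upstream CEBPB window (chr20:50190333-50190582) held none of the letters searched. The TATA box is not particular to these genes, since it also begins 30 bases before the start in FOXA3, whose window is not shown. The FOXA3 window also holds AGGTCA on the opposite strand, which is thus not particular to NR1H4. The bases were searched on both strands, except for the TATA box, and no 2 of the marked matches overlap. Of 35116 promoter windows of this length, GTTAAT was in 6.23%, TGTTTA in 11%, AGGTCA in 12.1% and TATAAA in 6.8%. The C/EBP core TTGCNNAA was in 9.05% of all windows and the HNF4 core CAAAGNNCA in 4.44%, and neither was in any of the 8 windows. A match of letters is a description, and gene-level FPKM do not tell which start was used.

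Not all libraries resembled their replicate. The 5 libraries of like expression were both of HepG2 WT, the first of HepG2 SR, and the second of each Huh7 group, with a Pearson's r of log2(FPKM + 1) across tested genes of 0.914 to 0.977. The other 3, HepG2 SR replicate 2 and the first replicate of both Huh7 WT and Huh7 SR, stood apart, with an r of 0.731 to 0.819 to those 5 (range over 15 pairs). Thus the replicates of 3 of the 4 groups differed more from each other than Huh7 and HepG2 libraries of the larger set did, and results are given below also for the 5 libraries of like expression. In that subset each Huh7 group and HepG2 SR has 1 library, which is assumed to vary as HepG2 WT does. The hepatocyte label was checked against ALB, the gene of albumin, which ranged from 12 FPKM in Huh7 WT replicate 1 to 4710 FPKM in HepG2 SR replicate 2. APOA1, TTR, SERPINA1 and TF were likewise lower in Huh7 WT replicate 1 than in replicate 2, and APOB was higher (119 against 50.9 FPKM). The liver genes FGG, FGB and MTTP were highest in Huh7 WT replicate 1 (1050, 380 and 57.7 FPKM), as were 16.8% of all tested genes. ALB alone thus does not describe that library. Of markers of other cells, the highest leukocyte, endothelial and fibroblast values besides LYZ and CD68 were CD14 at 6.27, PECAM1 at 4.28 and COL1A2 at 8.28 FPKM, and PTPRC, TEK and DCN stayed at or below 0.0335 FPKM. LYZ was at 44.2 to 1060 FPKM and CD68 at 3.94 to 29.1 FPKM.

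All 8 factors were expressed in every library, and the order of their levels was not fixed. The highest of the 8 was HNF4A in 4 libraries, CEBPB in 3 and NR1H4 in 1. HNF4A averaged 47.8 FPKM over the libraries, CEBPB 56.6, CEBPA 32.7, FOXA2 21.9, NR1H4 18.4, FOXA1 14.1, PROX1 13.2 and FOXA3 12.6 FPKM. The 3 lowest of these averages lie closer together than the replicates of any of those 3 genes do in Huh7 SR, so no order among FOXA1, PROX1 and FOXA3 could be made out. HNF4A exceeded 78.3% of all tested genes in the library in which it was lowest, Huh7 WT replicate 2.

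**Figure D1:**
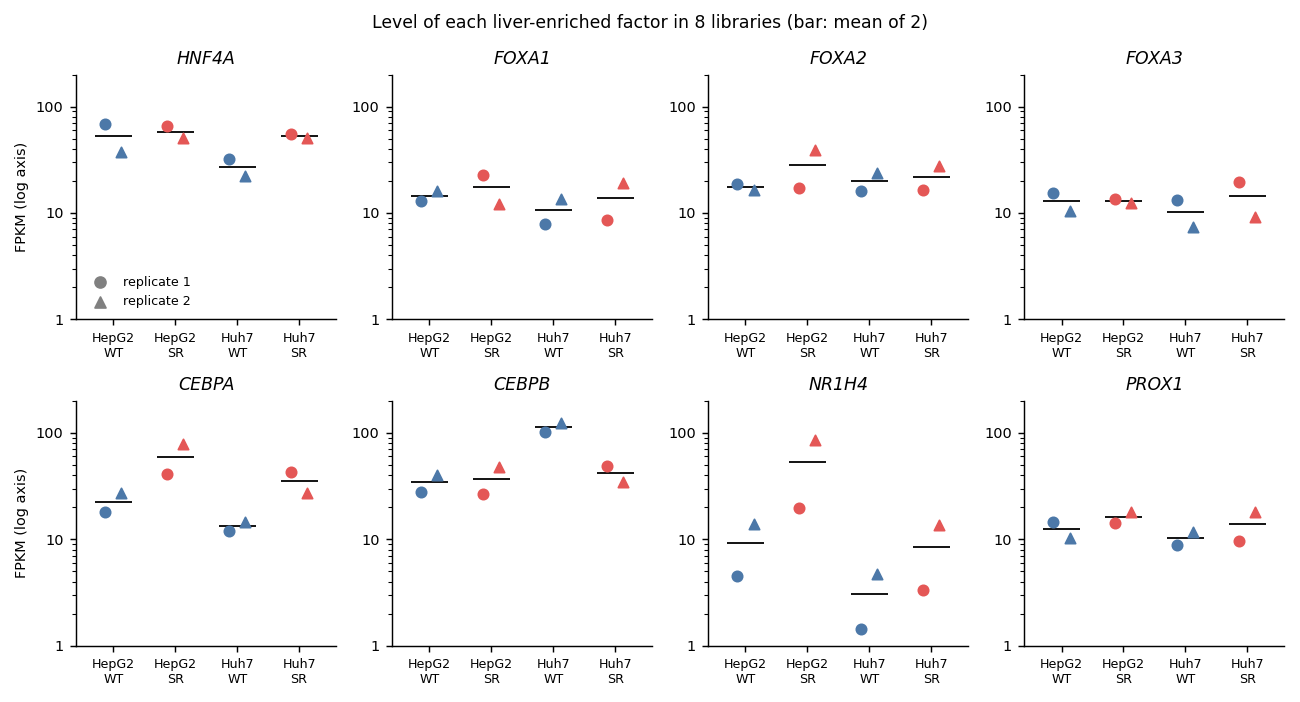
FPKM of the 8 factors on a log axis in each of the 8 libraries, by group, with circles for replicate 1, triangles for replicate 2, blue for WT, red for SR and a bar at the mean of the 2 libraries. CEBPA lies between 12 and 27.2 FPKM in WT and between 27.4 and 78.2 FPKM in SR libraries, and CEBPB stands highest in Huh7 WT, at 102 and 124 FPKM.

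Each comparison was made with limma on log2(FPKM + 1) across all tested genes, and a gene was called at an unadjusted p under 0.05 with a log2 difference over 0.5 in either direction, the thresholds of the study. In HepG2, 1 of the 8 factors was called between SR and WT, against 2.14% of all genes, and it was CEBPA, higher in SR as were 0.877% of all genes. In Huh7, 3 of the 8 were called, against 1.87% of all genes. CEBPA and HNF4A were higher in SR, where 0.942% of all genes were called higher, and CEBPB was lower, where 0.923% were called lower. Over both cell lines 2 of the 8 were called, CEBPA and NR1H4, against 3.93% of all genes. Both were higher in SR, as were 1.90% of all genes. No gene of the 15173 reached a Benjamini-Hochberg adjusted p under 0.05 with limma in any of these comparisons, where 325, 283 and 597 genes had an unadjusted p under 0.05, and the smallest adjusted p was 0.956 in HepG2, 1 in Huh7 and 0.998 over both. The calls below therefore rest on unadjusted p-values. The median log2 difference of the 8 factors was 0.28 in HepG2 and 0.39 in Huh7, and that of all tested genes was -0.03 and -0.05.

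**Figure D2:**
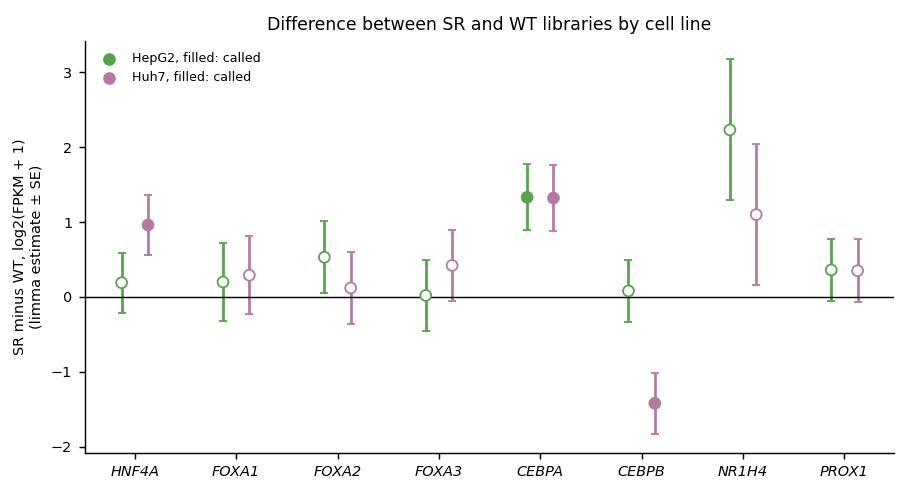
Difference between SR and WT in log2(FPKM + 1) for each factor, as the limma estimate with its standard error (n = 2 libraries per group), in HepG2 (green) and Huh7 (purple), with filled points for called genes. CEBPA is at 1.33 in HepG2 and 1.32 in Huh7, whereas CEBPB is at 0.08 in HepG2 and -1.42 in Huh7.

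CEBPA, the factor of the differentiated hepatocyte, was higher in SR than in WT cells of both lines. The HepG2 WT libraries had 17.9 and 27.2 FPKM, and the HepG2 SR libraries 41.5 and 78.2 FPKM. The Huh7 WT libraries had 12 and 14.5 FPKM, and the Huh7 SR libraries 42.9 and 27.4 FPKM. The 4 SR libraries thus lay above the 4 WT libraries, though the lowest SR library and the highest WT library were nearly level. The log2 difference was 1.33 (SE 0.44, adjusted p = 0.956) in HepG2, or 2.51-fold, and 1.32 (SE 0.44, adjusted p = 1) in Huh7, or 2.50-fold. The difference between these 2 estimates was -0.01 (SE 0.63), and that error leaves room for a disagreement as large as the estimates themselves.

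Over both cell lines the CEBPA difference was 1.32 (SE 0.31, adjusted p = 0.998), and it was called in every alternative fit of that comparison. A two-sided exact permutation test of the 4 SR against the 4 WT libraries gave p = 0.0286, the smallest that 4 against 4 can give. This was 1 of 16 such tests (8 factors, SR against WT and Huh7 against HepG2), the only one under 0.05, and none was adjusted. Complete separation of SR from WT was found in 3.68% of all tested genes. It did not survive rescaling of the libraries to a common sum (TPM), where the lowest SR library was at 64.6 and the highest WT library at 68.7, with an exact permutation p of 0.0571. In the single cell lines the call rested on particular libraries. In HepG2 it was lost without WT replicate 1 (1.04) and without SR replicate 2 (0.88), and in Huh7 without WT replicate 1 (1.19) and without SR replicate 1 (1.0). In the 5 libraries of like expression the CEBPA difference was 0.88 in each cell line and was not called.

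CEBPB, its stress-responsive relative, showed another pattern. HepG2 WT had 28.1 and 40.5 FPKM against 26.9 and 47.5 FPKM for HepG2 SR, so that these groups overlapped. Huh7 WT had 102 and 124 FPKM against 49.3 and 34.8 FPKM for Huh7 SR. Both Huh7 WT libraries thus exceeded every other library of the series. The log2 difference between SR and WT was 0.08 (SE 0.41) in HepG2 and -1.42 (SE 0.41, adjusted p = 1) in Huh7. Over both lines it was -0.67 (SE 0.29, adjusted p = 0.998) and not called. Among the fits of all 8 libraries, CEBPB was called lower over both lines with the filter at an FPKM of 0.1, in TPM and under quantile normalization. Its difference over both lines was larger without HepG2 SR replicate 2 (-0.87) and in the 5 libraries of like expression (-1.06). Those fits leave 1 library in a group. Without Huh7 SR replicate 2 the Huh7 difference was -1.17 and no longer called, and it was called in the 5 libraries of like expression. The difference between the cell lines in this comparison was -1.50 (SE 0.57, adjusted p = 1), and CEBPB was the 1 factor of 8 called for it, against 0.606% of all genes.

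The levels of CEBPA and CEBPB kept a close ratio within each group. CEBPA divided by CEBPB was 0.638 and 0.672 in the HepG2 WT libraries and 1.54 and 1.65 in HepG2 SR. For Huh7 the ratios were 0.118 and 0.117 in WT, and 0.87 and 0.789 in SR. The ratio of SR was thus above that of WT in both lines, by 1.28 in HepG2 and 2.82 in Huh7 on the log2 scale. Between replicates the log2 ratio had an SD of 0.066, pooled over the 4 groups, although CEBPA alone had an SD of 0.459 and CEBPB of 0.4 in log2 FPKM. Among all 28 pairs of the 8 factors the next smallest SD was 0.32, for FOXA2 and PROX1, and the median was 0.777. Of 13981 tested genes above 0 in every library, 2 kept a ratio to CEBPA with an SD no larger, CEBPB itself and ENSG00000227615, an identifier with no symbol in the table used. This pattern was noticed after the values were seen and was not tested. The replicates compared include the 3 libraries that stood apart from their partners.

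**Figure D3:**
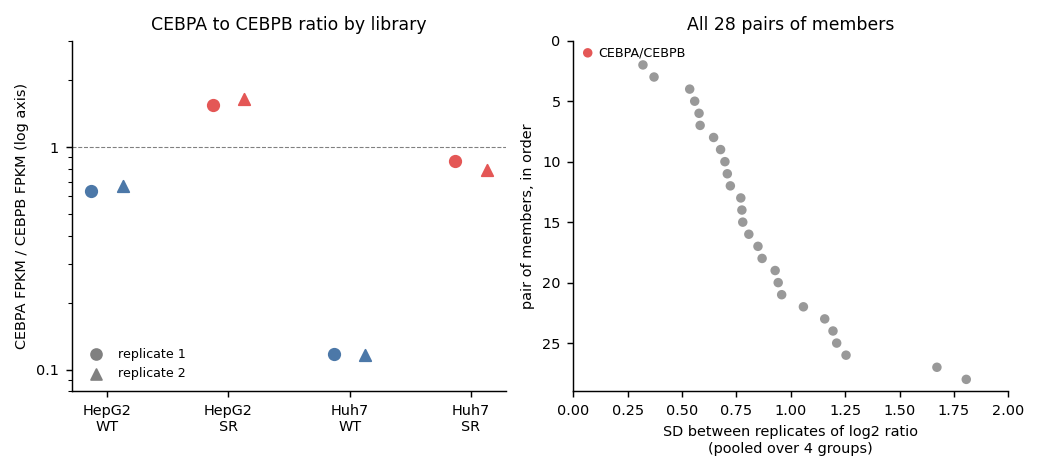
Left, CEBPA FPKM divided by CEBPB FPKM in each library on a log axis (circles replicate 1, triangles replicate 2, blue WT, red SR, dashed line at equal levels). Right, the SD between replicates of the log2 ratio for each of the 28 pairs of factors in ascending order, where CEBPA and CEBPB are at 0.066 and the next pair at 0.32.

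HNF4A, the nuclear receptor at the centre of the network, measured 68.5 and 37.1 FPKM for HepG2 WT against 65.4 and 51.0 FPKM for HepG2 SR. It measured 32.2 and 22.2 FPKM for Huh7 WT against 55.7 and 50.2 FPKM for Huh7 SR. The HepG2 groups overlapped and the Huh7 groups did not. The log2 difference was 0.19 (SE 0.40) in HepG2 and 0.96 (SE 0.40, adjusted p = 1) in Huh7, or 1.95-fold. The Huh7 call changed with the libraries and the fit. It was lost without any 1 of the 4 Huh7 libraries (0.70 to 1.22 on the log2 scale), under rescaling to a common sum (0.88), and in the 5 libraries of like expression (1.14). At an unaltered 0.96 it was also lost without either HepG2 SR library, with each cell line fitted alone and with eBayes without trend. The test of the difference between the cell lines gave 0.77 (SE 0.57).

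The FOXA genes, which encode the pioneer factors of the liver, did not separate SR from WT cells. FOXA1 had 12.9 and 16.1 FPKM for HepG2 WT, 22.9 and 12.1 in HepG2 SR, 7.82 and 13.6 in Huh7 WT, and 8.63 and 19.1 in Huh7 SR. FOXA2 had 18.9 and 16.3 FPKM for HepG2 WT, 17.2 and 38.8 in HepG2 SR, 16 and 23.8 in Huh7 WT, and 16.5 and 27.4 in Huh7 SR. FOXA3 had 15.5 and 10.5 FPKM for HepG2 WT, 13.6 and 12.3 in HepG2 SR, 13.1 and 7.36 in Huh7 WT, and 19.5 and 9.21 in Huh7 SR. In each of the 3 genes the SR and WT libraries overlapped in both cell lines. The limma estimates ran from 0.02 (FOXA3 in HepG2, SE 0.47) to 0.53 (FOXA2 in HepG2, SE 0.48), and none was called. These errors leave room for a difference of the size seen for HNF4A in Huh7. The highest FOXA2 level, 38.8 FPKM, was in HepG2 SR replicate 2, 1 of the libraries that stood apart.

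NR1H4, the bile acid receptor FXR, had the widest range over the 8 libraries. HepG2 WT libraries had 4.48 and 14 FPKM, and HepG2 SR libraries 19.8 and 85.9 FPKM. Huh7 WT libraries had 1.42 and 4.67 FPKM, and Huh7 SR libraries 3.33 and 13.5 FPKM. Both HepG2 SR libraries lay above both WT libraries, and the Huh7 groups overlapped. Its highest level was 60.6 times its lowest, a log2 range larger than that of 98.4% of tested genes. In the 5 libraries of like expression its highest level was 4.41 times its lowest, and that of CEBPB was 4.58 times. The log2 difference between SR and WT was 2.23 (SE 0.94) in HepG2 and 1.10 (SE 0.94) in Huh7, neither of them called. A fit with a replicate block called NR1H4 in both lines, but whether equal replicate numbers pair the libraries is not known. Over both cell lines the log2 difference was 1.66 (SE 0.67, adjusted p = 0.998), or 3.16-fold, but the exact permutation test of 4 against 4 libraries gave p = 0.2. That call was lost without HepG2 WT replicate 1 (1.3), HepG2 SR replicate 2 (1.15), Huh7 WT replicate 1 (1.35) or Huh7 SR replicate 2 (1.23), with no filter (1.66) and in the 5 libraries of like expression (1.27).

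PROX1, the hepatoblast homeobox factor, had the narrowest range over the 8 libraries. It had 14.6 and 10.3 FPKM for HepG2 WT, 14.2 and 18.1 in HepG2 SR, 8.82 and 11.6 in Huh7 WT, and 9.56 and 18.1 in Huh7 SR. SR and WT libraries overlapped in both lines. The log2 difference was 0.36 (SE 0.42) in HepG2 and 0.35 (SE 0.42) in Huh7. Its highest level was 2.05 times its lowest, and 19.3% of tested genes had a smaller log2 range. In the 5 libraries of like expression FOXA2 was narrower, at 1.67 times against 1.76 for PROX1.

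Complete separation of both SR from both WT libraries of a line was seen for 2 of the 8 factors in HepG2, CEBPA and NR1H4, where it held for 38.2% of all tested genes. In Huh7 it was seen for 3, CEBPA, HNF4A and CEBPB, where it held for 22.0%. The summed level of the 8 factors was 172 to 222 FPKM in 7 libraries and 344 FPKM in HepG2 SR replicate 2, to which NR1H4 and CEBPA contributed most.

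Between the cell lines as labelled, 2 of the 8 factors were called, against 4.90% of all genes. The libraries that stood apart were HepG2 SR replicate 2 and the first replicate of both Huh7 groups. The highest r of any pair, 0.977, was between HepG2 SR replicate 1 and Huh7 SR replicate 2. Line and kind of library thus cannot be fully told apart under these labels. NR1H4 was lower in Huh7 than in HepG2 by a log2 difference of -1.86 (SE 0.67, adjusted p = 0.813). CEBPB was higher by 0.96 (SE 0.29, adjusted p = 0.813). Both overlapped between the lines, with exact permutation p-values of 0.0857 and 0.114. In the 5 libraries of like expression NR1H4 differed by -0.60 and was not called. NR1H4 also lost the call without HepG2 WT replicate 2, HepG2 SR replicate 2 or either replicate 1 of Huh7 (-1.55 to -1.34), and CEBPB without HepG2 WT replicate 1 (0.83). For the other 6 factors the log2 difference ran from -0.71 (CEBPA, SE 0.31) to -0.06 (FOXA2, SE 0.34).

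Liver genes that depend on these factors spanned wider ranges over the 8 libraries than the factors did, and so did marker lists of other states. The median range over the 8 libraries, on the log2(FPKM + 1) scale, was 1.51 for the 8 factors and 1.45 for all tested genes. It was 4.84 for 24 tested genes of the hepatocyte that depend on HNF4A, 4.18 for 15 target genes of FXR and 3.49 for 13 liver genes that depend on C/EBP proteins. For 11 biliary and progenitor markers it was 4.1 and for 9 mesenchymal markers 3.93, so that wide ranges were not particular to the dependent genes. For 27 other transcription factors of the liver it was 2.04. In 9 of the 24, 6 of the 15 and 5 of the 13 the range exceeded that of NR1H4, the widest of the factors. The lists overlap, since HNF4A-dependent genes share 5 with the C/EBP list and 3 with the FXR list. ALB reached 2140 and 3160 FPKM in the HepG2 WT and 2870 and 4710 FPKM in the HepG2 SR libraries. Huh7 WT had 12 and 604 FPKM and Huh7 SR 42.3 and 2890 FPKM, while HNF4A stayed within 22.2 to 55.7 FPKM there. AHSG, the gene of the plasma protein fetuin-A, ranged from 4.61 FPKM in Huh7 WT replicate 1 to 2920 FPKM in Huh7 SR replicate 2. Within the 5 libraries of like expression the median range was 1.22 for the 8 factors, against 0.83 for all tested genes. There it was nearly level for the FXR targets (1.28), the C/EBP-dependent genes (1.32) and the biliary and progenitor markers (1.2). For the HNF4A-dependent genes it was 2.06, for the mesenchymal markers 1.69 and for the other transcription factors 1.0.

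**Figure D4:**
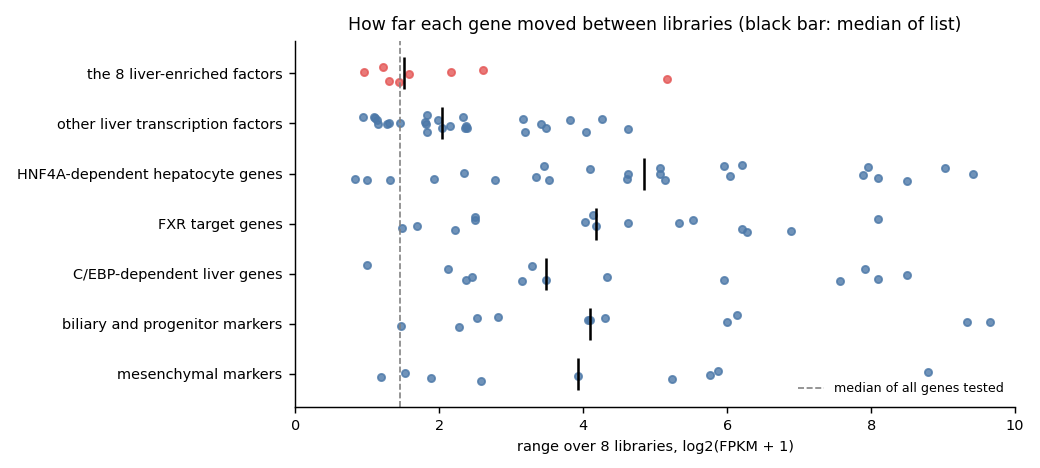
Range of each tested gene over the 8 libraries on the log2(FPKM + 1) scale, for the 8 factors (red) and 6 gene lists (blue), with the median of each list as a black bar and that of all tested genes (1.45) as a dashed line. The 8 factors have a median of 1.51, and the HNF4A-dependent genes of 4.84.

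HNF4A-dependent genes were called in Huh7 in 2 of 24, both higher in SR, and in HepG2 in 0 of 24, against 1.87% and 2.14% of all genes. In Huh7 all 24 had a positive estimate, with a median of 1.45, and in HepG2 13 of 24, with a median of 0.11, where 44.7% and 47.6% of all genes did. Without Huh7 SR replicate 2 the Huh7 median was 0.45 with 17 of 24 positive, and without any other 1 of the Huh7 libraries 18 or 19 were positive. The HepG2 median was -0.12 without WT replicate 1 and -0.18 without SR replicate 1. TF, the gene of transferrin, was at 17.4 and 26.0 FPKM in Huh7 WT and at 43.9 and 211 FPKM in SR, a log2 difference of 2.13 (SE 0.70). APOC3, an apolipoprotein gene, was at 6.83 and 8.89 FPKM in Huh7 WT and at 19.3 and 82.2 FPKM in SR, a log2 difference of 2.22 (SE 0.69). In the 5 libraries of like expression the Huh7 median of the 24 was 1.94, from 1 library in each group. Over both lines TF and AMBP were called, both higher in SR, where 1.90% of all genes were called higher. AMBP, which encodes the bikunin precursor, was at 236 to 543 FPKM in WT and 408 to 905 FPKM in SR libraries (log2 difference 0.69, SE 0.29). Without HepG2 WT replicate 2 no gene of this list was called over both lines.

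Calls among FXR target genes and C/EBP-dependent genes were too few to set apart from the share of all tested genes, 2.14% in HepG2 and 1.87% in Huh7. Of 15 FXR targets, 0 were called in either line, with medians of -0.41 in HepG2 and 0.65 in Huh7. The list was not divided into genes that FXR raises and genes that it lowers, so these medians give no direction of FXR activity. The HepG2 median was 0.01 without WT replicate 1, without SR replicate 2 and in the 5 libraries of like expression, and the Huh7 median was 0.12 without WT replicate 1 and 0.29 without SR replicate 2. Their most abundant members were APOA1, from 17.7 to 1370 FPKM, and APOE, from 148 to 846 FPKM. NR0B2, which encodes the repressor SHP and is a classical FXR target, was chosen after its values were seen. It was at 4.53 FPKM in HepG2 SR replicate 2, where NR1H4 was highest, and at 44.0 to 67.3 FPKM in the other HepG2 libraries. FGF19, another FXR target looked up in the same way, was at 10.2 FPKM in that library and at most 0.562 FPKM elsewhere. Of the 15 tested targets, 3 were highest in that library, ABCB4 (5.0 FPKM), KNG1 (63.3 FPKM) and UGT2B4 (17.9 FPKM), as were 17.9% of all tested genes. Of 13 C/EBP-dependent genes, 1 was called in HepG2 and 0 in Huh7, with medians of -0.66 and 0.65. The HepG2 median was -0.05 without SR replicate 2 and -1.86 without SR replicate 1, and the Huh7 median was -0.18 without SR replicate 2. The called gene, TRIB1, encodes a pseudokinase that promotes degradation of C/EBP alpha. HepG2 WT libraries had 56 and 52.1 FPKM of TRIB1, and HepG2 SR libraries 21 and 4.81 FPKM (log2 difference -2.28, SE 0.83, adjusted p = 0.956). That call was lost without either WT library and without SR replicate 2. In Huh7 TRIB1 was at 13.8 and 37.9 FPKM in WT and at 5.73 and 20.0 FPKM in SR, which overlap (log2 difference -1.01, SE 0.83). IGFBP1, the most abundant gene of that list after ALB, was at 2.52 to 842 FPKM.

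Among 27 other transcription factors of the liver, 1 was called in HepG2 and 1 in Huh7, against 2.14% and 1.87% of all genes. Their medians were 0.49 and 0.37. XBP1, a factor of the unfolded protein response and the most abundant of them, had 71.9 and 101 FPKM for HepG2 WT against 176 and 153 FPKM for HepG2 SR (log2 difference 0.94, SE 0.32), a call lost without WT replicate 1 and under quantile normalization. DDIT3, a stress-induced C/EBP family member that dimerizes with the others, was at 32.1 and 43.8 FPKM in Huh7 WT and at 18.8 and 9.08 FPKM in SR (log2 difference -1.45, SE 0.42), a call lost without either replicate 2 of Huh7. In HepG2 DDIT3 was at 10.1 to 12.8 FPKM throughout. The test of the difference between the lines gave -1.60 for DDIT3 (SE 0.59) and -1.88 for CEBPG, a further C/EBP family member (SE 0.69), beside -1.50 for CEBPB. Over both lines HHEX, a homeobox factor of the early liver bud, was called along with XBP1, against 3.93% of all genes. HHEX was at 14.2 to 29.3 FPKM in WT and 32.2 to 53.1 FPKM in SR libraries (log2 difference 1.0, SE 0.31). Without HepG2 WT replicate 1 or HepG2 SR replicate 2 neither was called over both lines. MLXIPL, which encodes the glucose-sensing factor ChREBP, was at 8.10 to 15.4 FPKM in the 3 libraries that stood apart and at 23.6 to 82.2 FPKM in the other 5.

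**Figure D5:**
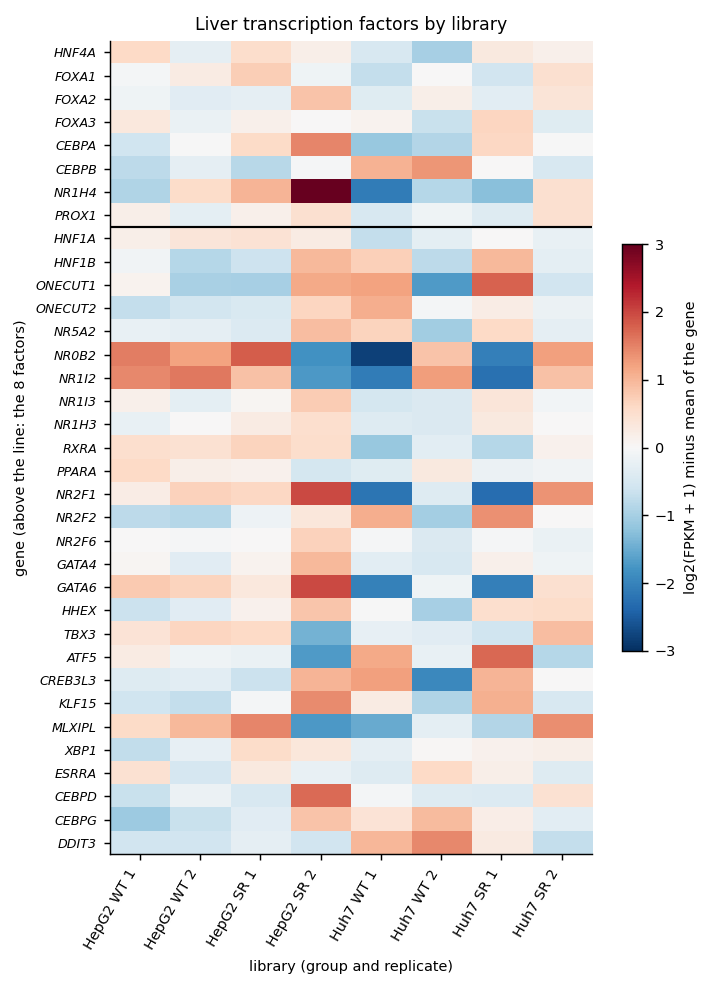
Level of the 8 factors (above the line) and 27 other liver transcription factors (below it) in each library, as log2(FPKM + 1) minus the mean of the gene, on a colour scale from -3 (blue) to 3 (red) at which deeper values saturate. NR1H4 is reddest in HepG2 SR replicate 2, at 85.9 FPKM, and NR0B2 and MLXIPL are blue in the 3 libraries that stood apart.

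The remaining lists mark other cells or states. Of all tested genes 2.14% were called in HepG2, 1.87% in Huh7 and 3.93% over both lines. None of 11 tested biliary and progenitor markers was called within a cell line, and ANXA3 was called lower over both (-1.34, SE 0.51), a call lost without HepG2 WT replicate 1, Huh7 WT replicate 2 or Huh7 SR replicate 1. The most abundant of them, SPP1 and KRT19, were at 0.0236 to 6.36 FPKM and 0.179 to 2.37 FPKM in the 3 libraries that stood apart, and at 121 to 823 FPKM and 155 to 760 FPKM in the other 5. Of 9 mesenchymal markers 0 were called. FN1 was at 190 FPKM or above in every library, and VIM reached 536 FPKM in HepG2 SR replicate 2, the library with the most NR1H4 and CEBPA, against at most 7.02 FPKM elsewhere. Of 4 immune markers tested, 1 was called higher in Huh7, LYZ (2.51, SE 1.05), and it was also called over both lines (2.14, SE 0.74). In Huh7 that call was lost with a pseudocount of 0.1, no filter, TPM, quantile normalization, a replicate block or eBayes without trend. It was also lost with each cell line fitted alone, or any 1 library left out other than Huh7 SR replicate 1. Over both lines it was lost without any 1 of the HepG2 libraries or Huh7 WT replicate 2. The summed level of the 6 immune markers was 61.5 to 295 FPKM in WT and 83.8 to 1070 FPKM in SR libraries, with LYZ the larger part in every library, and CD68 was next at 3.94 to 29.1 FPKM. Neither the 1 endothelial marker tested, PECAM1, nor the 2 fibroblast markers tested were called, and the 6 markers of each summed to at most 4.63 and 9.03 FPKM. The largest fibroblast value was COL1A2 at 8.28 FPKM, again in HepG2 SR replicate 2. The part of any such cells or states in the levels of the 8 factors was not tested, and in bulk libraries fewer cells of a kind and less RNA per cell cannot be told apart.

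Among 11871 tested genes with a log2 range of at least 1, the pattern nearest to each factor was measured by the root mean square (RMS) difference over the 8 libraries after centring each gene. For HNF4A these were SDHA (0.136), SCRN2 (0.187) and APEH (0.191), and for FOXA3 VPS51 (0.081), PHF23 (0.101) and IRF2BP1 (0.116). For FOXA1 they were DDN-AS1, MRPL45P2 and GUCD1 (0.094 to 0.143), for PROX1 AFDN, WDR59 and SPG7 (0.141 to 0.15), and for CEBPB TUBE1, UFL1 and TMED7-TICAM2 (0.19 to 0.228). For FOXA2 they were ENSG00000287104, RPS24P19 and EFCAB13 (0.113 to 0.138). Of these, MRPL45P2 and RPS24P19 are pseudogenes and TMED7-TICAM2 is a readthrough, whose reads may be shared with near-identical or overlapping genes. The genes nearest to CEBPA and NR1H4 lay further off. These factors had the widest log2 ranges of the 8 (2.61 and 5.17), and the RMS difference is not scaled to the range. Their larger distances therefore do not show a more unusual pattern. For CEBPA the nearest were UNG (0.297), MCM5 (0.306) and PRADC1 (0.313), of which UNG encodes the uracil glycosylase of DNA repair and MCM5 a subunit of the replicative helicase. For NR1H4 they were RBP4 (0.437), SPTLC3 (0.452) and ACSM2B (0.502), of which RBP4 encodes the hepatic retinol carrier, at 42.6 to 1460 FPKM.

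In GENCODE release 29 (GRCh38) the 8 genes lie on 5 chromosomes, and HNF4A (chr20:44355700-44434596), FOXA2 (chr20:22581005-22585455) and CEBPB (chr20:50190734-50192689) share chromosome 20. CEBPA is at chr19:33299934-33302564, FOXA3 at chr19:45863989-45873797, FOXA1 at chr14:37589984-37596059, NR1H4 at chr12:100473708-100564413 and PROX1 at chr1:213983181-214041502. Whether fragments were counted by strand is not given in the sources used here, so reads of genes that share exonic bases on the opposite strand cannot be told apart. CEBPB shares 231 exonic bases with CEBPB-AS1, which was at 0.123 to 0.939 FPKM, and PROX1 shares 171 with PROX1-AS1, at 0.719 to 2.61 FPKM. CEBPA shares 659 exonic bases with the antisense gene AC008738.3, which was listed at 0 in every library, and FOXA1 shares 16 with TTC6.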

How the data were processed

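Polyadenylated RNA of WT and SR cells of both lines was sequenced in 8 libraries, all labelled as 1 batch. The authors deposited FPKM values, 1 per gene and library, scaled for transcript length and library total. The submitters' processing notes name fastp 0.20.0 and build GRCh38. The aligner and quantification tool are not given in the sources used here. Of 63241 identifiers, 62666 were paired with a symbol. FPKM carry no read totals, and 2 readings of the steps between low values gave different depths, so depth is unknown and no interval was derived.

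Genes that reached an FPKM of 1 in 2 or more libraries entered the test on log2(FPKM + 1). limma 3.58.1 (R 4.3.3; lmFit and eBayes with trend) was fitted in 1 model of 4 group means with 4 residual degrees of freedom. Calls required an unadjusted p under 0.05 and a log2 fold change over 0.5 or under -0.5. A log2 difference on this scale understates the change of genes with low FPKM. Single values were tested with two-sided exact permutation tests (SciPy 1.17.1). The fit was tested on simulated data with known changes, where 5.6% of unchanged genes were called in HepG2. Noise was drawn independently for each gene and library. Libraries that shift together, as the 3 that stood apart do, were therefore not represented. Groups came from the labels alone.

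The factors, the gene lists and the tests were chosen with earlier results of these data known. Named genes were all 8 factors, the genes of each list called in an SR versus WT comparison and its 2 most abundant genes, and the 3 genes most like each factor in pattern. Genes named outside this rule are marked, or serve to check labels or to describe an overlap.

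Alternatives were a pseudocount of 0.1, the filter lowered to an FPKM of 0.1 or removed, quantile normalization, TPM (each library rescaled to the same sum), a replicate block, no trend in eBayes, each cell line fitted alone, each library left out, and the 5 libraries of like expression. Those for the permutation test of CEBPA were chosen after seeing the data. Motifs were searched in RefSeq promoter windows (GRCh38.p14). Further software was Python 3.11.15 with NumPy 2.4.6, pandas 2.3.3 and matplotlib 3.10.9.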

Additional observations from a re-analysis of the deposited data

Results flagged for a closer look

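The CEBPB difference between SR and WT was not the same in the 2 cell lines. The interaction term of the limma model, Huh7 minus HepG2, was -1.50 on the log2 scale (SE 0.57, adjusted p = 1), past the unadjusted threshold. CEBPB was lower in both Huh7 SR than in both Huh7 WT libraries, and the HepG2 groups overlapped. The call was lost without HepG2 WT replicate 1, HepG2 SR replicate 2, Huh7 WT replicate 1, Huh7 WT replicate 2 or Huh7 SR replicate 2, where the estimate was -1.64 to -1.10. Groups of 2 libraries are too small for a test of outlying samples.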

How the results depend on the processing

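Direction and call of the log2 differences of the 8 factors in 5 comparisons were kept in 304 of 336 values under other settings and in 253 of 320 with 1 library left out. No setting brought a gene to an adjusted p under 0.05 in limma, and the cause of a change was not tested. The number of factors called in HepG2 was 1 as reported, 2 with the filter at an FPKM of 0.1, 2 with the replicate block and 0 in the 5 libraries of like expression. It was 1 in Huh7 (3 as reported), 0 for the difference between the lines (1) and 1 between the lines (2) in those 5 libraries, and 1 over both lines (2) with no filter. With 1 library left out it was 0 to 2 in HepG2, 1 to 3 in Huh7, 1 to 2 over both lines, 0 to 1 for their difference and 1 to 3 between the lines. The exact permutation p for CEBPA was 0.0571 in TPM and 0.2, the smallest possible, in the 5 libraries. Among the fits of all 8 libraries, the filter at an FPKM of 0.1, TPM and quantile normalization each called CEBPB lower over both lines, so that 3 factors were called there. The CEBPB difference over both lines was -1.06 in the 5 libraries and -0.87 without HepG2 SR replicate 2. The replicate block added NR1H4 to the calls in HepG2 (2.23) and Huh7 (1.1). Replicate differences had an r of 0.125 between HepG2 WT and SR, 0.796 between Huh7 WT and SR, and -0.562 to -0.0416 across lines. Equal numbers were thus not shown to pair the HepG2 libraries. Huh7 WT and SR libraries of equal number had an r of 0.965 and 0.914, and Huh7 replicates of 0.754 and 0.76. Both first replicates of Huh7 stood apart and the second did not, so pairing and kind of library cannot be told apart there. NR1H4 was 3.13 to 4.34 times higher in replicate 2 than in replicate 1 of every group, an order shared by 5.38% of tested genes. Signs turned in the 5 libraries for FOXA2 (-0.03) and CEBPB (-0.31) in HepG2, for FOXA2 (0.53) and PROX1 (0.13) between the lines, and for the difference of the lines in FOXA1 (-0.17), FOXA2 (0.22), NR1H4 (0.16) and PROX1 (0.41). In TPM they turned for FOXA3 (-0.08) and CEBPB (-0.02) in HepG2, and for the difference in CEBPA (0.02) and PROX1 (0.01). Quantile normalization turned that difference for CEBPA (0.18) and PROX1 (0.09), and a pseudocount of 0.1 for CEBPA (0.01). With 1 library left out, signs turned in HepG2 for HNF4A (-0.24 to 0.63), FOXA1 (-0.23 to 0.63), FOXA2 (-0.03 to 1.1), FOXA3 (-0.24 to 0.28) and CEBPB (-0.31 to 0.48). In Huh7 they turned for FOXA1 (-0.23 to 0.82), FOXA2 (-0.23 to 0.46), FOXA3 (-0.09 to 0.92) and PROX1 (-0.07 to 0.78), and over both lines for FOXA1 (-0.02 to 0.51) and FOXA3 (-0.03 to 0.47). For the difference they turned for FOXA1 (-0.43 to 0.62), FOXA2 (-0.98 to 0.14), FOXA3 (-0.1 to 0.9), CEBPA (-0.46 to 0.43) and PROX1 (-0.44 to 0.42), and between the lines for FOXA2 (-0.35 to 0.22) and FOXA3 (-0.4 to 0.11). TPM lowered the share of higher genes among all calls from 40.9% to 26.5% in HepG2, from 50.5% to 34.6% in Huh7 and from 48.3% to 30.6% over both lines, and it moved the median difference of all genes from -0.03 to -0.12, -0.05 to -0.14 and -0.05 to -0.14. Lowering the filter to 0.1 or removing it gave 33.1% and 35.1% higher in HepG2, and 72.8% and 72% for the difference of the lines (60.9% as reported). Calls over all genes numbered 325 in HepG2, 283 in Huh7, 596 over both lines, 92 for the difference and 744 between the lines. They came to 473, 1777, 1439, 940 and 1263 in the 5 libraries, to 504 in HepG2 and 254 for the difference with the filter at 0.1, to 168 for the difference with no filter, and to 124 in Huh7 with the lines fitted alone. With 1 library left out they ran from 57 (without HepG2 SR replicate 2) to 1749 (without HepG2 SR replicate 1) in HepG2, and from 154 (without HepG2 WT replicate 2) to 818 (without Huh7 WT replicate 1) in Huh7.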
